A study of Mus musculus with 24 samples.

Results

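1700007K13Rik, 1 of the 21671 genes measured, was chosen from its own expression levels over the 8 groups of samples and from its rank by change after irradiation (IR) in Trp53+/+ cells, so that its levels, differences and ranks are a description and carry no test. RNA-Seq was available for splenic B cells and for the remaining, non-B cells of C57/Bl6 mice of 8 weeks of age, wild-type (Trp53+/+) or with both copies of Trp53 knocked out (Trp53-/-). The mice were unstressed controls (mock), or received 7 Gy of IR to the whole body, and their spleens were taken 4 h later. Each cell type and treatment had 4 Trp53+/+ and 2 Trp53-/- samples, 24 samples in all, and the labels give no other allele or agent. B cells were taken from the spleen with magnetic beads against B220, a surface protein of B cells, and the non-B cells were what flowed through the column, after lysis of red blood cells.

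p53, the product of Trp53, is a transcription factor that is stabilized after DNA damage. It binds DNA as a tetramer, at pairs of a decamer consensus, and activates genes for cell cycle arrest, apoptosis, DNA repair and its own negative feedback. 1700007K13Rik codes for a small protein also known as Pierce1, a gene first described as induced by p53 in cells that lack Rb. In ciliated cells the protein belongs to the inner side of the microtubule doublets of motile cilia, and lymphocytes carry no motile cilia.

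In GENCODE release M1, which annotates NCBIM37 (mm9), the gene (ENSMUSG00000026831.9, protein coding) lies on the minus strand at chr2:28317521-28321852. Its longest coding transcript has 3 exons of 299, 79 and 434 bp and 167 codons before the stop, and no other annotated gene overlaps it. The sequences below are shown because they hold the matches to the p53 decamer consensus nearest to its start. They were read from NCBIM37 on the minus strand, 5′ to 3′, with matches in capitals. The first is the 242 bases before the annotated start (chr2:28321853-28322094) and the second is a stretch of the first exon (chr2:28321800-28321829).

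1700007K13Rik upstream: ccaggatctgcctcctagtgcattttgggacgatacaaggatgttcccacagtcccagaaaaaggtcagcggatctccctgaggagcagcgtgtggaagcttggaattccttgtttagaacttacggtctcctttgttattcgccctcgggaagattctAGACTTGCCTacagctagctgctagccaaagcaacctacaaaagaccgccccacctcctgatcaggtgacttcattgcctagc

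1700007K13Rik first exon: gcacAGACTTGATCtGGGCTAGTTTcctgc

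The upstream decamer matched every letter of the consensus and began 83 bases before the annotated start. In the first exon, a pair of decamers parted by 1 base began at base 28. Its second decamer matched every letter, and the pair as a whole had 1 mismatch. The consensus reads the same on both strands, so 1 search covers both. Among 32851 RefSeq promoter windows of the same 300 bases (250 before and 50 after each RefSeq start, assembly GRCm38.p6), 8.4% held at least 1 exact decamer, 0.4% held at least 2, and 1.1% held a pair with at most 1 mismatch and a spacer of at most 13 bases. The window of 1700007K13Rik, whose letters are the same in NCBIM37, falls in each of these classes. Windows were found for 30 genes of a p53 target list described below, 43 windows in all, of which 14 held an exact decamer, or 32.6%, and 6 held such a pair. Matches describe these letters only, and binding of p53 was not analysed here.

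Expression was given as RPKM, a read number divided by the length of the gene and by the reads of the sample that fell on exons. In the 4 Trp53+/+ B cell samples collected after IR, 1700007K13Rik stood at an RPKM of 23.5, 26.4, 41.9 and 42.5. In the 4 unstressed Trp53+/+ B cell samples it was listed at 0 in each. In Trp53-/- B cells it was listed at 0 in both controls and in both irradiated samples. The gene was thus seen in B cells only in the 4 samples that were irradiated and had intact Trp53, with a mean RPKM of 33.6 ± 10.03 (SD, n = 4).

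In non-B cells the same pattern held at a lower level. The 4 irradiated Trp53+/+ samples stood at an RPKM of 16.3, 12.4, 16.9 and 21.5, a mean of 16.8 ± 3.73 (SD, n = 4). Of the 4 Trp53+/+ controls, 3 were listed at 0 and control 2 at an RPKM of 0.233. Both Trp53-/- controls and both irradiated Trp53-/- samples were listed at 0. In order of mean level, irradiated Trp53+/+ B cells came first and irradiated Trp53+/+ non-B cells second, with no overlap between their samples. The 6 other groups, at 0 or at a mean of 0.0583 ± 0.117 (SD, n = 4), did not differ from one another beyond their spread. The plot of RPKM by group shows these 24 values.

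**Figure D1:**
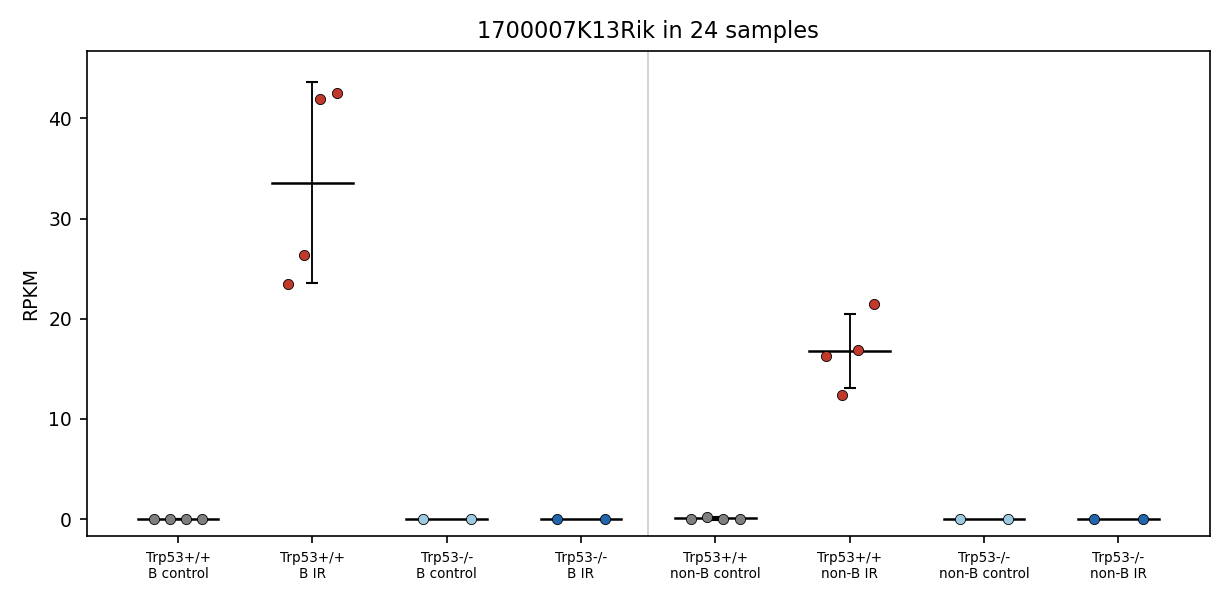
RPKM of 1700007K13Rik (vertical axis) in each sample, by genotype, cell type and treatment (horizontal axis). Points are samples, horizontal lines group means, and error bars the SD of groups of 4. The 4 irradiated Trp53+/+ B samples lie between 23.5 and 42.5, the 4 irradiated Trp53+/+ non-B samples between 12.4 and 21.5, and every other sample at 0 or 0.233.

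The depth of each sample, estimated from the steps between the lowest RPKM values, ranged from 4.79 to 11.01 M (mega) reads. Reads on 1700007K13Rik were worked out with the 812 bp of its longest coding transcript. All its annotated exons cover 965 bp, and with that length a read would be worth a lower RPKM. In the 15 samples listed at 0, 1 read on 1700007K13Rik is worth an RPKM between 0.112 and 0.168. A count of 0, which allows up to 3 reads, leaves room for an RPKM of up to 0.336 to 0.504. The RPKM of 0.233 in non-B control 2 came to about 2 reads. The irradiated Trp53+/+ samples held an estimated 118, 103, 244 and 267 reads for B samples 1 to 4 and 102, 71, 119 and 179 for non-B samples 1 to 4. In every sample 10 genes used by every cell, such as Actb and Gapdh, had an RPKM of at least 19.3. At such levels they do not show how well a weak transcript was detected, which was not tested.

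Within each irradiated Trp53+/+ sample the gene stood in the upper part of the expression range, while the 4 irradiated Trp53-/- samples had it at 0, below which no gene can lie. In Trp53+/+ B cells its RPKM after IR was above that of 80.05%, 83.5%, 91.2% and 91.5% of all genes. In Trp53+/+ non-B cells it was above that of 71.5%, 65.2%, 71.9% and 76.6%. A listing at exactly 0 before IR, which depends on depth and gene length, with a sizeable level after IR was rare among all genes. Of the 4254 genes listed at 0 in all 4 Trp53+/+ B cell controls, 2 exceeded an RPKM of 1 in all 4 irradiated samples. They were 1700007K13Rik and Ckmt1, a mitochondrial creatine kinase named after its values were seen, which reached an RPKM between 4.75 and 9.29. In non-B cells 3860 genes were at 0 in all 4 Trp53+/+ controls, and none of them exceeded an RPKM of 1 in all 4 irradiated samples. 1700007K13Rik was not among these, since control 2 had an RPKM of 0.233. Of the 3608 genes at 0 in at least 15 of the 16 samples that were not irradiated Trp53+/+ cells, a bound set with the values of 1700007K13Rik known, it was the 1 gene above an RPKM of 1 in all 8 irradiated Trp53+/+ samples.

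Differences were fitted with limma on log2(RPKM + 0.5). From a control at 0, the size of such a difference is set by the pseudocount of 0.5. No fold change is given for that reason. The difference between IR and control was 6.04 in Trp53+/+ B cells (SE 0.20) and 4.95 in Trp53+/+ non-B cells (SE 0.20). It was 0.00 in Trp53-/- cells of either type (SE 0.28, from the spread shared by all groups of the fit). Between the genotypes, the response therefore differed by the same 6.04 for B cells (SE 0.34) and 4.95 for non-B cells (SE 0.34). The B cell response was larger than the non-B cell response by 1.09 (SE 0.30).

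By this difference 1700007K13Rik ranked 2 of the 13821 genes tested in Trp53+/+ B cells and 1 of the 14018 tested in non-B cells. In B cells Phlda3, a brake on Akt signalling, stood above it at 6.17 (SE 0.13). Tnfsf4, the ligand of the OX40 receptor on T cells, followed at 6.02 (SE 0.18), and Cdkn1a, the cyclin-dependent kinase inhibitor p21, at 5.83 (SE 0.12). Each of the 3 lay about as far from 1700007K13Rik as the SE of the values, or nearer, so that this spread does not set the order among them. In non-B cells the next genes were Tnfsf4 at 4.64 (SE 0.25) and Phlda3 at 4.59 (SE 0.22). The genes ranked beside it were not alike in level. In irradiated Trp53+/+ B cells the mean RPKM was 109 ± 11.5 for Phlda3, 64.2 ± 8.13 for Tnfsf4 and 89.5 ± 7.72 for Cdkn1a (SD, n = 4), against 33.6 for 1700007K13Rik. In the controls of the same cells they had a mean RPKM of 1.02, 0.515 and 1.08, so that 1700007K13Rik had the lowest level of the 4 both before and after IR.

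Among the 4 irradiated Trp53+/+ B cell samples, 1 and 2 were low and 3 and 4 high. The mean RPKM of 1700007K13Rik in the first pair was 0.592 times that in the second. The median of this ratio was 0.945 over the 9306 genes above an RPKM of 5 in all 4 samples. It was 0.919 over 28 p53 target genes that rose. Of these 28, samples 1 and 2 were both below samples 3 and 4 for 17, and both above for 2. Estimated depth was 6.16 and 4.79 M reads in samples 1 and 2, against 7.18 and 7.73 M in samples 3 and 4. The same samples also differed in signal on genes that blood cells mostly do not use. Among 1440 genes for odorant and pheromone receptors, 36.67% and 47.29% had an RPKM above 0 in irradiated Trp53+/+ B samples 1 and 2, against 7.01% and 15.97% in samples 3 and 4. The share was 24.65%, 8.61%, 51.32% and 35.83% in irradiated Trp53+/+ non-B samples 1 to 4, and between 5.42% and 13.12% in the 16 other samples. The mean RPKM of these genes stayed between 0.0681 and 0.309 in all 24 samples, although a few were expressed, the highest at an RPKM of 58.5. In non-B sample 2, where 8.61% were above 0, 1700007K13Rik had an RPKM of 12.4, and in B sample 3, where 7.01% were above 0, it had 41.9. The part of this signal, or of depth, in the spread of 1700007K13Rik was not tested.

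Markers of other cells were present in both fractions. The summed RPKM of 5 B cell markers (Cd79a, Cd79b, Ms4a1, Cd22 and Pax5) ranged from 537 to 714 in B samples and from 142 to 373 in non-B samples, with none of the 5 at 0 in all samples of a group. The sum of 6 T cell markers ranged from 35.1 to 67.7 in B samples and from 245 to 517 in non-B samples. The sum of 6 erythroid markers in Trp53+/+ non-B cells ranged from 91.9 to 261 in controls and was at most 41.3 after IR, and in Trp53+/+ B cells it ranged from 32.3 to 72.6 in controls and from 11.5 to 16.1 after IR. The sum of 6 markers of cycling cells in Trp53+/+ non-B cells ranged from 83.1 to 288 in controls and from 53.8 to 113 after IR. The part of either change in the differences after IR was not tested. In irradiated Trp53+/+ samples, the mean level of 1700007K13Rik in non-B cells was 0.50 times that in B cells, and the B marker sum was 0.368 times that in B cells. Non-B sample 2 had the highest B marker sum of its group, at 281, with the lowest level of 1700007K13Rik. Non-B sample 3 had the lowest sum, at 142, with an RPKM of 16.9 for 1700007K13Rik. Samples 1 and 4 had sums of 201 and 234, with an RPKM of 16.3 and 21.5 for 1700007K13Rik. The part of B cells in the level of the non-B fraction was not tested. Per unit of B marker RPKM, the gene stood between 0.0382 and 0.0791 in the irradiated B samples and between 0.0443 and 0.119 in the non-B samples. In a mixed fraction, fewer cells with the transcript and less transcript per cell cannot be told apart.

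The Trp53 row itself ranged from an RPKM of 35.0 to 65.8 in the Trp53+/+ samples and from 21.6 to 41.8 in the Trp53-/- samples. It was lower in Trp53-/- controls than in Trp53+/+ controls with a log2 difference of -1.08 for B cells (adjusted p = 8.6e-06) and -0.91 for non-B cells (adjusted p = 9.2e-04). After IR the row did not set the genotypes apart in non-B cells, where both Trp53-/- samples, at 34.6 and 36.4, lay beside Trp53+/+ samples between 35.0 and 38.6. Among Trp53-/- B samples it rose from 21.6 and 21.7 to 40.5 and 41.8, a log2 difference of 0.91 (adjusted p = 2.6e-06), and stayed below the irradiated Trp53+/+ B samples, between 58.7 and 65.8. It was not at 0 in any sample. Which exons the knockout allele lacks is not given in the sources used here, so the row gives a partial check of the genotype labels.

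A list of 39 genes that p53 is known to activate, chosen from textbook knowledge, was set beside 1700007K13Rik. Of these, 38 were matched in the files. A gene was called higher or lower, here also written as rose or fell, when its adjusted p was under 0.05 and its log2 difference beyond 0.58 in either direction. In Trp53+/+ B cells 37 passed the filter on low values, 28 rose after IR and Rrm2b, a ribonucleotide reductase subunit, fell, where 12.5% of all genes tested rose and 12.2% fell. The median difference of the 37 was 2.02, against 0.01 over all genes. In Trp53+/+ non-B cells 29 of 38 rose and none fell by limma (none at an unadjusted p under 0.05 either), with 5.74% of all genes higher and 4.11% lower, and the median was 1.37, against -0.03. Genes that passed the filter through their level after IR had to differ, and the list was chosen with earlier results known, so that these counts describe the list.

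Among the members of this list with a role in cell cycle arrest, Cdkn1a rose by a log2 difference of 5.83 in Trp53+/+ B cells (adjusted p = 1.9e-11). Its log2 difference was 3.99 in the non-B fraction (adjusted p = 3.9e-07). The feedback genes Mdm2, the ubiquitin ligase of p53, and Ccng1, cyclin G1, rose by 1.67 and 1.64 in B cells (adjusted p = 3.5e-10 and 2.0e-08). Of the apoptosis genes, Bbc3, which codes for the BH3-only protein Puma, rose by 4.36 among B cells (adjusted p = 5.6e-11) and by 2.42 among non-B cells (adjusted p = 2.4e-07). Bax, an effector at the mitochondrial membrane, rose by 1.91 and 1.51. Zmat3, an RNA-binding zinc finger protein, and Eda2r, a receptor of the TNF family, rose in Trp53+/+ B cells by 2.71 and 1.79 and in Trp53+/+ non-B cells by 1.84 and 1.45. Of the 8 named members, 7 were above an RPKM of 0 in every control sample of either genotype. Eda2r came nearest to 1700007K13Rik in this respect. It was listed at 0 in all 8 Trp53-/- samples, and in Trp53+/+ B cells it was between 0 and 0.035 in controls and between 0.961 and 1.66 after IR.

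The same list was counted without Trp53. In Trp53-/- B cells 6 of 37 rose and 12 fell (13.1% and 11.2% of all genes), with a median of -0.08. In Trp53-/- non-B cells 1 of 38 rose, Aen, an apoptosis-enhancing nuclease, and none fell by limma (0.193% and 0.25% of all genes), with 2 lower at an unadjusted p under 0.05. Over all 14018 genes 62 were called in these cells, or 17 with the replicate number as a block. The response was called larger with Trp53 than without it for 30 of 37 in B cells (6.56% of all genes) and for 26 of 38 among non-B cells (3.72%). The difference went the other way for 1 gene in B cells, Plk3, a polo-like kinase (5.43% of all genes), and by limma for none in non-B cells (2.82%; none at an unadjusted p under 0.05). Phlda3, for example, rose by 6.17 in Trp53+/+ B cells and differed by -0.69 in Trp53-/- B cells (adjusted p = 0.0113, or 0.0659 and 0.128 in the fits without Trp53-/- irradiated B sample 1 or control 1). With a pseudocount of 1 that difference of Phlda3 was -0.40 and was not called (adjusted p = 0.0546). The plot of responses by genotype places 1700007K13Rik on the line of no change in Trp53-/- cells, at the top of the Trp53+/+ axis in non-B cells and next to Phlda3, which stands above it, in B cells.

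**Figure D2:**
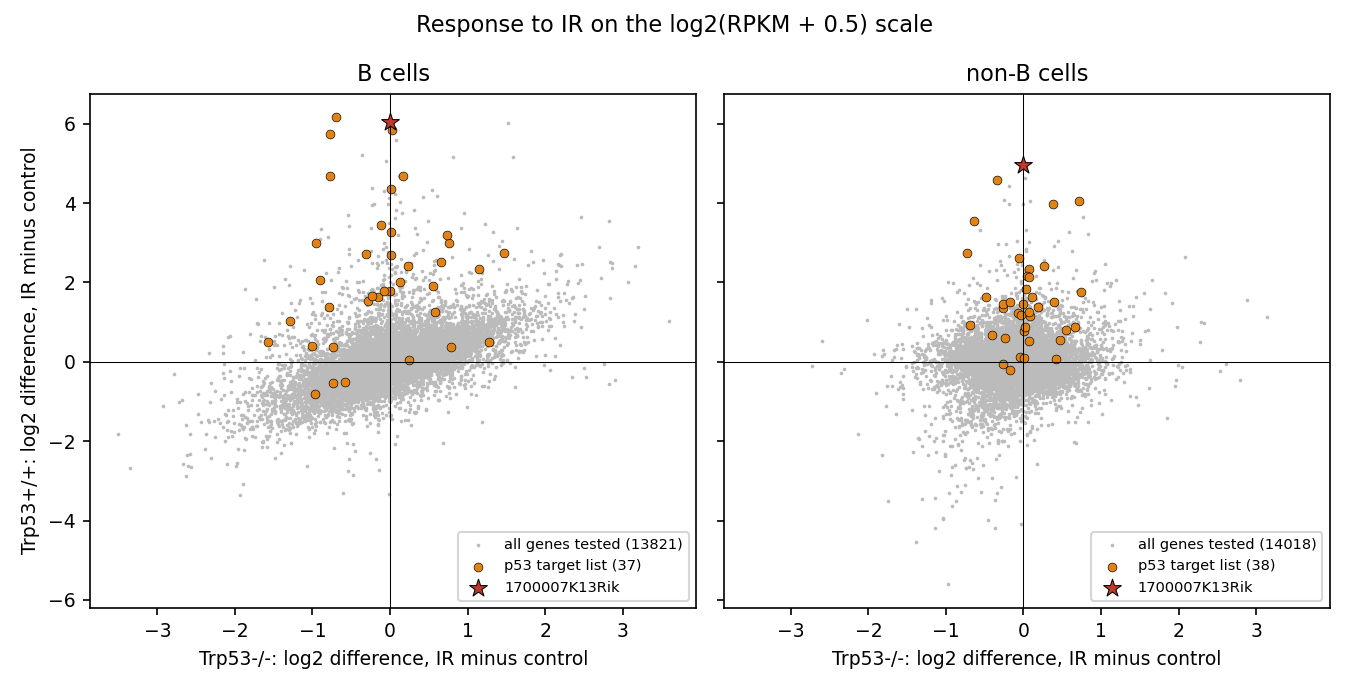
Difference between IR and control on the log2(RPKM + 0.5) scale in Trp53-/- cells (horizontal axis) and Trp53+/+ cells (vertical axis), for B cells (left) and non-B cells (right). Grey points are all genes tested, orange points the p53 target list, and the star is 1700007K13Rik, at 0.00 and 6.04 in B cells and at 0.00 and 4.95 in non-B cells.

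The neighbouring genes examined on chromosome 2 did not share this pattern. They were the 2 nearest on each side among annotated genes whose symbol had expression values here. Mrps2, a protein of the small subunit of the mitochondrial ribosome, lies on the plus strand at chr2:28323586-28326698, and its start is 1734 bp from that of 1700007K13Rik, in the opposite direction. Its RPKM in Trp53+/+ B cells was 18.8, 16.3, 16.5 and 15.2 in controls and 22.7, 21.4, 25.8 and 28.1 after IR. All irradiated samples were above all controls, and the log2 difference of 0.53 (SE 0.09, adjusted p = 3.5e-04) was below the threshold of 0.58. It was 0.59 and 0.60, above the threshold, without control 1 or irradiated sample 2. In Trp53-/- B cells Mrps2 rose from 15.7 and 17.3 to 33.1 and 34.0, a log2 difference of 1.00 (SE 0.13, adjusted p = 7.0e-05). The response of Mrps2 did not pass the test for a genotype difference (-0.46, SE 0.16, adjusted p = 0.0571). In non-B cells it differed by 0.01 with Trp53 (adjusted p = 0.949) and by 0.23 without (adjusted p = 0.488).

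Gbgt1, a glycosyltransferase, is the next of the genes examined on the same side, 30558 bp away. In Trp53+/+ B cells its RPKM was 4.59, 4.88, 6.97 and 6.01 in controls and 4.6, 2.18, 2.39 and 1.64 after IR, and it fell by 0.99 on the log2 scale (SE 0.29, adjusted p = 0.0127). Irradiated sample 1 lay within the range of the controls. In Trp53-/- B cells the difference was -0.86 (adjusted p = 0.115), and in Trp53+/+ non-B cells it was 0.18 (adjusted p = 0.747). On the other side, Olfm1, a secreted olfactomedin, and Fcnb, a lectin of myeloid cells, lie 231264 and 377115 bp away. Olfm1 was called after IR in no group, with log2 differences between -1.07 and 0.24, and Fcnb, which passed the filter in non-B cells only, differed by 0.20 there in Trp53+/+ cells (adjusted p = 0.884). The panels of RPKM for neighbouring genes show the contrast with 1700007K13Rik.

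**Figure D3:**
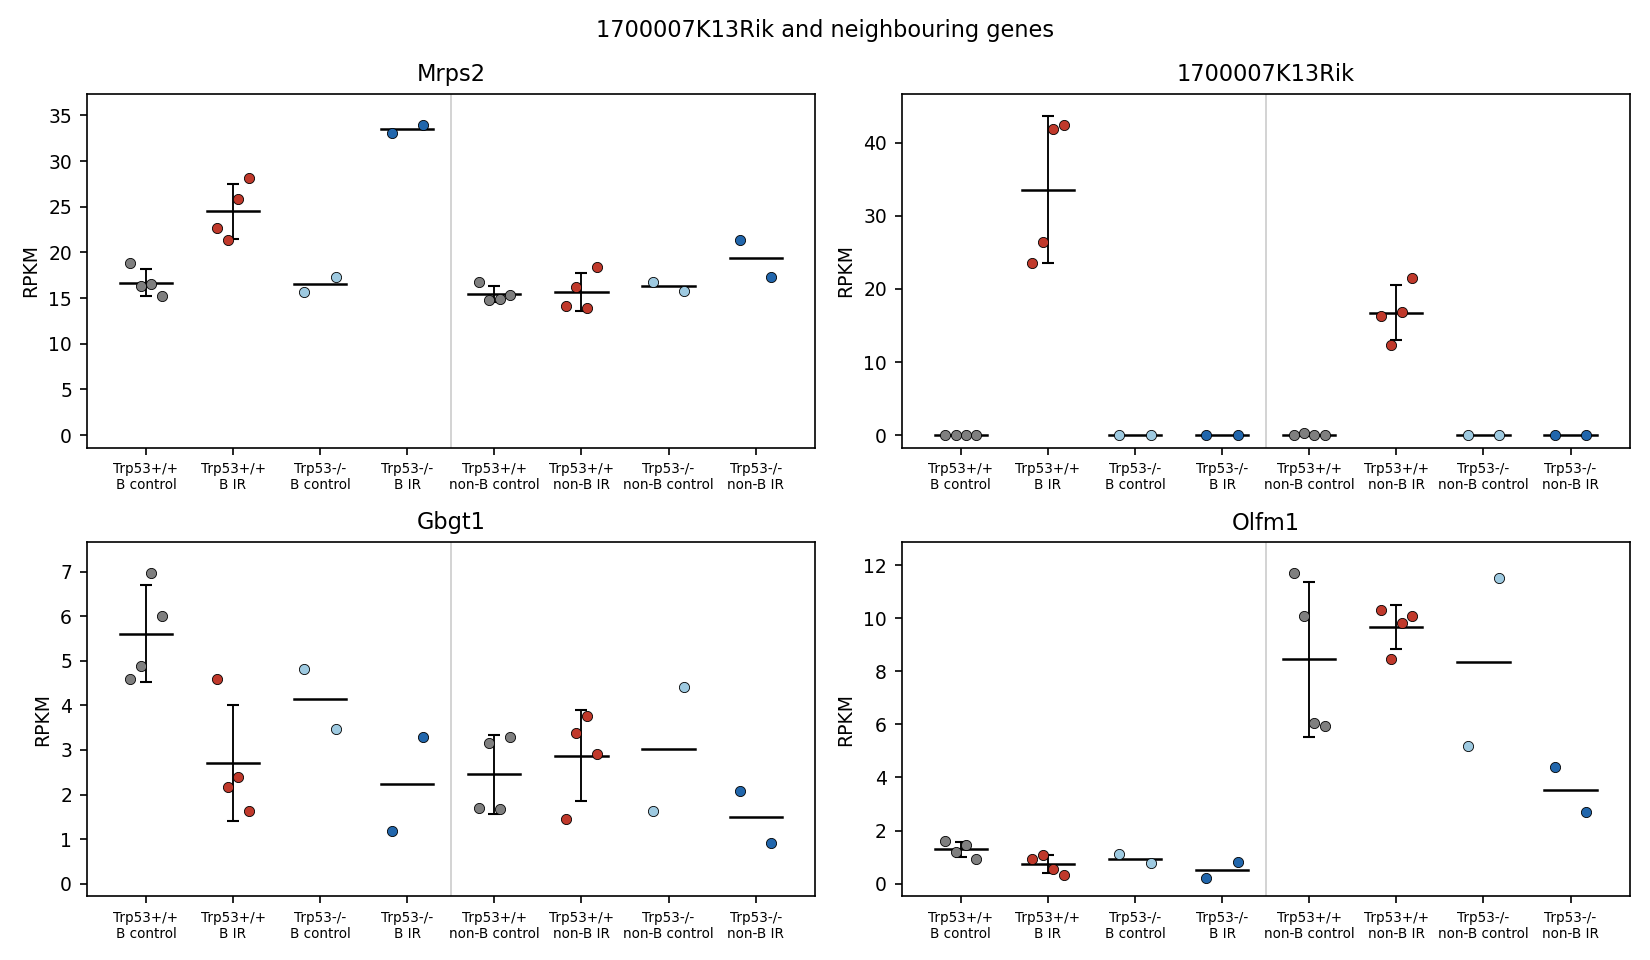
RPKM (vertical axes) of Mrps2, 1700007K13Rik, Gbgt1 and Olfm1 by genotype, cell type and treatment (horizontal axes). Points are samples, lines group means, and error bars the SD of groups of 4. Mrps2 stands between 13.9 and 34.0 in every group, where 1700007K13Rik goes from 0 to between 12.4 and 42.5 in irradiated Trp53+/+ samples alone.

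The genes most like 1700007K13Rik were taken as those with the highest Pearson correlation of log2(RPKM + 0.5) over the 24 samples, among 13240 other genes that passed the filter in both cell types. The samples form a group that is high and a group that is low, so that the correlation describes this split and was not tested. Celf5, an RNA-binding protein, came first with r = 0.995. Prrg4, a membrane protein with a Gla domain, Grhl3, a transcription factor of epithelia, Cep170b, a relative of a centrosomal protein, and Polk, a DNA polymerase of translesion synthesis that also stands on the p53 target list, each had r = 0.993.

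Celf5 and Grhl3 were, like 1700007K13Rik, near 0 outside irradiated Trp53+/+ cells. The RPKM of Celf5 was between 0.05 and 0.204 in Trp53+/+ B cell controls and was 10.3, 7.92, 12.6 and 17.0 after IR. In irradiated Trp53+/+ non-B cells it was 10.2, 6.76, 9.38 and 12.4, a range that overlaps that of B cells. Grhl3 reached 19.6, 18.8, 16.7 and 20.7 in irradiated Trp53+/+ B cells, with 13.8, 13.5, 14.8 and 17.1 in their non-B counterparts, and it was listed at 0 in both irradiated Trp53-/- B samples. The 3 others had a level before IR. Polk stood at an RPKM between 8.90 and 9.68 in Trp53+/+ B cell controls and between 58.9 and 65.4 after IR. Prrg4 went from between 2.95 and 4.78 to between 71.3 and 83.5, and Cep170b from between 3.10 and 3.42 to between 53.8 and 63.1.

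The mean in irradiated non-B cells was 0.50 times that in irradiated B cells for 1700007K13Rik, 0.488 for Cep170b, 0.528 for Prrg4, 0.678 for Polk, 0.783 for Grhl3 and 0.810 for Celf5. Among the 8 named p53 target genes this ratio ran from 0.639 for Phlda3 to 0.864 for Cdkn1a, all above that of 1700007K13Rik. The plot of the most alike genes gives their levels by group.

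**Figure D4:**
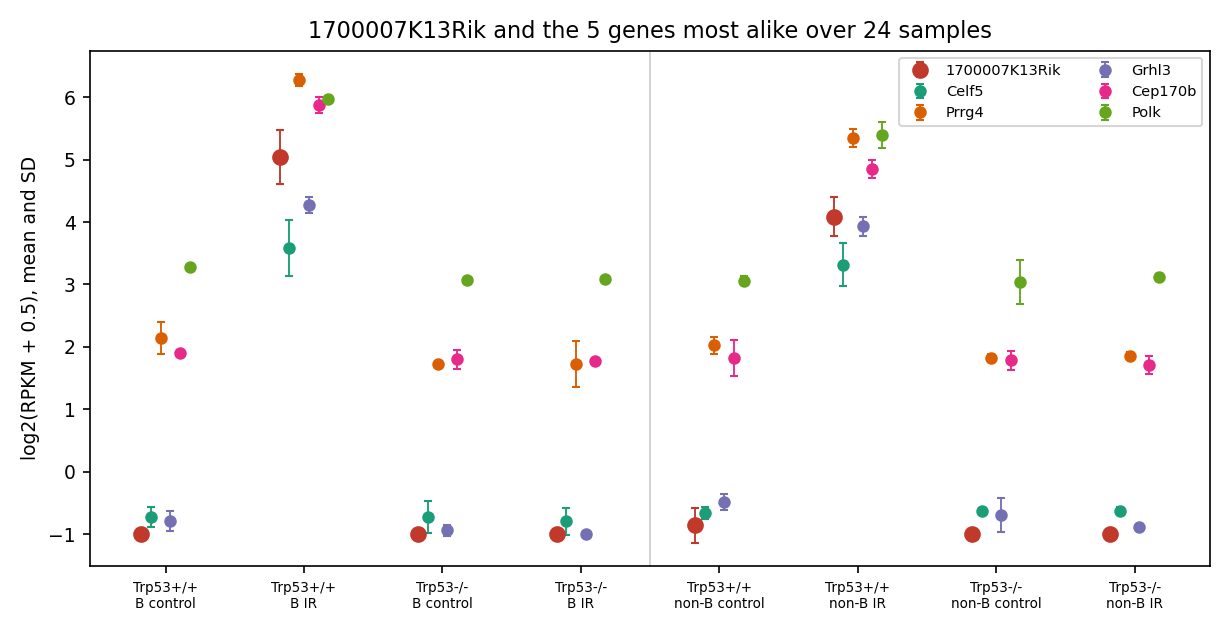
Mean log2(RPKM + 0.5) with SD (vertical axis) of 1700007K13Rik and the 5 genes with the highest correlation to it, by genotype, cell type and treatment (horizontal axis; n = 4 for Trp53+/+ and n = 2 for Trp53-/- groups). All 6 genes are higher in both irradiated Trp53+/+ groups than in the 6 other groups, where 1700007K13Rik, Celf5 and Grhl3 are near the floor that the pseudocount sets.

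Since Pierce1 is known from motile cilia, 30 other genes of motile cilia were examined, among them the transcription factor Foxj1, axonemal dyneins and proteins of the inner side of the doublets. Of these, 15 passed the filter among B cells, 16 passed it among non-B cells and 14 passed in neither. In Trp53+/+ B cells Foxj1, Tekt2 and Spag8 rose and Rfx3, Cfap45 and Nme7 fell. The 15 had a median difference of 0.10, and their 3 calls each way compare with 12.5% and 12.2% of all genes. In Trp53+/+ non-B cells Foxj1 and Tekt2 rose and Mns1, a protein of the doublet lumen, fell, 2 and 1 of 16, where 5.74% of all genes rose and 4.11% fell. In Trp53-/- B cells Foxj1 rose and Rfx2 and Rfx3, transcription factors of ciliated cells, fell, 1 and 2 of 15, where 13.1% of all genes rose and 11.2% fell. With so few members, these counts lie near the shares over all genes.

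Mns1 had an RPKM of 38.2, 38.6, 12.9 and 17.2 in Trp53+/+ non-B controls 1 to 4 and between 6.58 and 9.15 after IR, a log2 difference of -1.54 (SE 0.35, adjusted p = 0.0132). Controls 1 and 2 were also the high ones in the sums of cycling markers, at 288, 269, 83.1 and 98.9, and of erythroid markers, at 261, 249, 91.9 and 103. The part of these cells in the difference of Mns1 was not tested.

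Tekt2, which codes for tektin 2, a filament of the doublets, came nearest to 1700007K13Rik. Its RPKM in Trp53+/+ B cells was 0.324, 0.285, 0.262 and 0.07 in controls and 1.4, 1.81, 2.13 and 2.75 after IR, with no overlap. It rose by 1.77 (SE 0.21, adjusted p = 2.4e-05). Tekt2 passed the filter in B cells through its irradiated Trp53+/+ samples alone. A rise and a genotype difference were thus favoured in advance, and the values of Tekt2 are a description. In Trp53-/- B cells it differed by 0.24 (adjusted p = 0.572). The genotype difference of 1.53 (SE 0.37, adjusted p = 0.0139) was the 1 called among the 15. This count lies near the share over all genes, of which 6.56% were higher and 5.43% lower. In non-B cells none of the 16 was called, where 3.72% were higher and 2.82% lower. The Tekt2 difference in B cells ran from 1.30 to 1.76 over fits that left out 1 sample. Its call was lost in 3 of the 4 fits without a Trp53-/- sample, those without control 1, control 2 or irradiated sample 1. With the same limit, Tekt2 passed the filter in non-B cells through irradiated Trp53+/+ sample 3 alone, at an RPKM of 1.07. In Trp53+/+ non-B cells Tekt2 rose by 0.81 (adjusted p = 0.0206, or 0.0545 without control 2). With a pseudocount of 1 or with quantile normalization that difference of Tekt2 was 0.54 and 0.55, below the threshold.

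Foxj1, the transcription factor that switches on genes of motile cilia, rose in B cells of both genotypes, by 0.79 in Trp53+/+ cells (adjusted p = 8.6e-04) and by 1.34 in Trp53-/- cells (adjusted p = 3.7e-04). Its RPKM was between 1.88 and 2.32 in irradiated Trp53+/+ B samples, between 0.762 and 1.14 in their controls, and 2.28 and 2.71 in irradiated Trp53-/- B samples. The genotype difference of Foxj1 in B cells did not pass the test (-0.54, SE 0.26, adjusted p = 0.173). In Trp53+/+ non-B cells, where Foxj1 passed the filter through irradiated samples alone, it rose by 0.88 (adjusted p = 0.0299). That call was lost, with adjusted p between 0.0523 and 0.0869, in 5 of 12 fits that left out 1 sample, those without control 1, 2 or 4 or irradiated sample 3 or 4.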

How the data were processed

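Total RNA, depleted of ribosomal RNA, was sequenced from 24 samples. As the study's methods state, the authors masked bases of low quality, used TopHat and mm9 for the alignment, reduced duplicated reads to 1 and ran featureCounts to count reads per gene. The submitters' processing notes name TopHat2 2.0.8 and featureCounts 1.4.5. The authors deposited RPKM values scaled to reads on exons, 1 per gene and sample. Removing duplicates can compress high levels. Counts were not used here, so the count model of the study was replaced by limma 3.58.1 (R 4.3.3, eBayes with trend) on log2(RPKM + 0.5), fitted per cell type over 12 samples and 4 group means, with a further fit over the 16 Trp53+/+ samples for the difference between cell types. Genes needed an RPKM above 1 in at least 1 Trp53+/+ sample of the cell type. Adjusted p is from Benjamini-Hochberg over all genes tested. Other steps used Python 3.11.15, numpy 2.4.6 and pandas 2.3.3, and plots matplotlib 3.10.9.

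The member gene and the gene lists were chosen with earlier results of these data known. Named genes were 1700007K13Rik, 2 neighbouring genes on each side, the 5 most correlated genes and the genes next in rank. Others were Trp53, 8 set p53 targets and members of the ciliary list. The neighbours were the nearest annotated genes whose symbol had expression values, so a nearer gene without a match would be passed over. A few listed genes are not reported here and were left out of the lists. Depth was estimated as the number of reads at which low RPKM values times gene length are nearest to whole reads, with lengths for 91.1% of genes. Between 55.1% and 62.6% of these values lay within 0.1 read of a whole number, where chance gives 20%, so the depths are approximate. Estimated reads cover counting error only. Scripts were tested on simulated data. Groups came from the sample titles. The study's methods give 4 Trp53+/+ and 2 Trp53-/- mice per condition, so samples of a cell type were taken as separate mice. B and non-B samples may share spleens. Same-numbered Trp53+/+ control and irradiated non-B samples deviated together over genes (r between 0.21 and 0.30 for the 4 pairs). Of these 8 samples, 4 correlated best with their own number, so a pairing by number is not settled. In B cells r was between 0.01 and 0.11. Alternatives were other pseudocounts, filters and scalings, a replicate block, Trp53+/+ samples alone, and leaving out each sample.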

Additional observations from a re-analysis of the deposited data

Results flagged for a closer look

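Mrps2 responded more in Trp53+/+ B cells than in Trp53+/+ non-B cells, by a log2 difference of 0.52 between the responses (SE 0.15, adjusted p = 0.0137 by limma). Differences between the cell types were judged by adjusted p alone, with no bound on their size, and 28% of all genes tested passed. In B cells 4 of 4 irradiated samples were above all controls. Gbgt1 differed between the cell types in the other direction, by -1.18 (SE 0.41, adjusted p = 0.0432). That difference lost its call in 11 of 16 fits that each left out 1 sample (adjusted p between 0.0552 and 0.0893 in these 11), without control 2, 3 or 4 or irradiated sample 2, 3 or 4 of B cells, and without control 1 or 3 or irradiated sample 2, 3 or 4 of non-B cells.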

How the results depend on the processing

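The size of the difference of 1700007K13Rik followed the pseudocount, since its controls were at 0. With a pseudocount of 0.1 the difference, and the genotype difference, became 8.35 for B cells and 6.94 for non-B cells, the difference between cell types 1.41 and the rank in B cells 1. With a pseudocount of 1 they became 5.06 and 4.05, with rank 6 in B cells and rank 3 in non-B cells. Quantile normalization gave rank 1 in B cells. The 5 other alternatives moved none of these results beyond the spread between replicates, or 1.5 times for ranks and counts, and no sign changed. Leaving out 1 sample gave differences from 5.91 to 6.19 for B cells and from 4.82 to 5.09 for non-B cells, a cell type difference from 0.96 to 1.25, ranks from 2 to 3 in B cells, and 28 p53 list genes higher in B cells, with 29 to 30 for non-B cells.

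With the replicate block, the differences stayed 6.04, 4.95 and 1.09, and 28 and 30 p53 list genes rose. Of the 8 Trp53+/+ B samples, 5 correlated best with their own number. Genes called in Trp53+/+ B cells went from 3415 to 3447 with the block. In Trp53-/- non-B cells same-numbered samples deviated in opposite ways (r = -0.38), and crossing their numbers, an alternative added after the data were seen, gave 152 called genes in these cells and 1709 in Trp53+/+ non-B cells, against 17 and 1565 with the numbers as given. Among named genes, 43 of 54 results kept their call status in every fit. The Gbgt1 difference between cell types had adjusted p = 0.0609 with the block, 0.0634 with quantile normalization and 0.0862 with no filter. Quantile normalization took that of Zmat3 to 0.101, of Ccng1 to 0.425 and of Bax to 0.516, and the cause was not tested. Depth limits what can be said of 1700007K13Rik where it is listed at 0, under an RPKM of 0.336 to 0.504, the worth of 3 reads.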
